A study of Mus musculus with 9 samples.

Results

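The genes described here are 34 enzymes and carriers with which mitochondria burn acetyl units and fatty acids. They were chosen by pathway and symbol, and each symbol matched a single gene among the 54532 genes of the count table. 13 belong to the citrate cycle and 21 to the uptake, activation and oxidation of fatty acids. RNA of injured tibialis anterior muscle was sequenced in 9 libraries, 3 each of young PBS, old PBS and old rMETRNL. The mice were C57/BL6J, 4 months old in the young group and 24 months old in the old groups. All 3 groups received an injection of BaCl2 into the muscle, a salt that destroys fibers and starts regeneration, so no group shows resting muscle. The muscle was then injected 3 times with PBS, the vehicle, or with recombinant meteorin-like protein (rMETRNL), a secreted factor. The sources differ on when the tissue was taken, as the study's text gives 8 days after injury and the series description 4 days. They also differ on what was sequenced, whole muscle in the text and a strained cell suspension in the labels. The old PBS libraries carry the numbers 2 to 4 and the others 1 to 3. The study counts 3 mice per group, but the labels do not tie a library to a mouse, so the p-values measure the spread between these libraries.

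In the citrate cycle, acetyl-CoA is joined to oxaloacetate and oxidised to carbon dioxide, with the electrons passed to the respiratory chain. Fatty acids enter the fiber through membrane carriers, are bound by a cytosolic carrier protein, activated to acyl-CoA and moved into mitochondria as carnitine esters. Beta oxidation then shortens the chain in a spiral of dehydrogenation, hydration, dehydrogenation and thiolysis, and the acetyl-CoA it releases feeds the citrate cycle. Both routes are rich in oxidative muscle fibers and are built up again as injured muscle regenerates. They are served by many of the same transcriptional regulators, among them the peroxisome proliferator-activated receptors and the estrogen-related receptors.

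Promoters of 4 fatty acid genes are shown because these genes held some of the larger differences between libraries and because together they hold an example of each motif that was found. The windows run from 250 bases before to 50 bases after the RefSeq start, are read on the strand of the gene and carry GRCm38.p6 positions. Fabp3 lies on the plus strand at chr4:130308488-130308787, Acadl on the minus strand at chr1:66863260-66863559, Acadm on the minus strand at chr3:153944594-153944893 and Hadhb on the plus strand at chr5:30155003-30155302. Capitals mark matches, on either strand, to a GC box (GGGCGG or its complement CCGCCC), to the YY1 motif (ATGGCGG or CCGCCAT) and to the nuclear receptor half-site (AAGGTCA or TGACCTT).
Fabp3: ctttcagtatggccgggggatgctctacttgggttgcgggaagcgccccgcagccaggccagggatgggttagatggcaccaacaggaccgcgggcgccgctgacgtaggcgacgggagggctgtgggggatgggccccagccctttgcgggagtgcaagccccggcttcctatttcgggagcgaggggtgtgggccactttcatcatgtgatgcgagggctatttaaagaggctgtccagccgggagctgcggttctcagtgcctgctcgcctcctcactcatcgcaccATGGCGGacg
Acadl: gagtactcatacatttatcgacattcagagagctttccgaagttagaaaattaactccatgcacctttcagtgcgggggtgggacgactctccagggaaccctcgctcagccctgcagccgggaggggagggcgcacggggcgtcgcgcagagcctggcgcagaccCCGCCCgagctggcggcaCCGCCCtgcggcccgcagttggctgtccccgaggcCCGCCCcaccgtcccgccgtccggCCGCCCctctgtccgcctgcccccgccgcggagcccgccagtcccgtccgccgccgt
Acadm: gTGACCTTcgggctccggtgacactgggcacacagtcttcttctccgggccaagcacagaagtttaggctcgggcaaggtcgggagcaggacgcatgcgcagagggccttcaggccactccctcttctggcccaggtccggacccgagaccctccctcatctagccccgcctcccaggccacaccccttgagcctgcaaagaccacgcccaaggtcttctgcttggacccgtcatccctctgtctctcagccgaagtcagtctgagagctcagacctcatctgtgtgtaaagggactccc
Hadhb: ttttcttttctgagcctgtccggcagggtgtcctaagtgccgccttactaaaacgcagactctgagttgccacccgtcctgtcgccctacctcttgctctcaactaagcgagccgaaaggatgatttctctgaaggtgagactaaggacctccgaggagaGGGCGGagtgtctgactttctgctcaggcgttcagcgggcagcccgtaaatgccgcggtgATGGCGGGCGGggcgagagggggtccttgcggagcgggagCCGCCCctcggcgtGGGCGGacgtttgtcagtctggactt
The promoter of Acadl held 4 GC boxes and that of Hadhb also 4, one of which overlapped its YY1 match. Fabp3 held a YY1 match and no GC box, and Acadm a half-site and no GC box. Of the 34 genes, 30 had a window in the table, and Idh3a, Cpt1b, Acaa2 and Decr1 had none. A GC box was found in 23 of the 30 (76.7%), against 38.2% of the 27025 genes in the table. The YY1 letters were found in 7 (23.3%, against 4.69%), namely Idh3g, Ogdh, Sucla2, Fabp3, Hadha, Hadhb and Echs1. The windows of Hadha and Hadhb overlap, so the same YY1 letters and a shared GC box were counted for both. The TATA letters TATAAA were found in 0 of 30 (against 15.7%). The half-site stood in 2, Ogdh and Acadm (6.67%, against 5.38%). The paired site of such receptors known as DR1 stood in 0 of 30 (against 0.0481%). The median GC content was 60.3% over the 36 windows of these genes and 52.7% over all windows. Hadha and Hadhb, which encode the subunits of the trifunctional protein, face away from each other. Their gene starts in the GENCODE M21 annotation, which are not the RefSeq starts of the windows, lie 86 bases apart. A match is a description of the letters, and a missing match says only that they are not in the window.

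The libraries held 16238700 to 22522560 counts, in which 21470 to 23950 genes had at least 1 count. The 34 genes took 0.782% to 1.18% of the counts, with 34 to 16574 counts per gene and library, so counting error was small beside the spread between libraries for nearly all of them. Levels are given as CPM, counts scaled to a common library total after TMM normalization, and 3 counts, taken as the floor, equal 0.133 to 0.185 CPM. The labelled tissue was borne out by the 16 markers of mature muscle fiber, which summed to 99050 to 181386 CPM. Among them Tnnc2 had only 19 to 56 counts per library, and 74% of its exon bases are shared on the opposite strand. It was kept in the list. The old PBS libraries stood apart from the other 6 and from each other. Brain markers such as Mobp and Snap25, listed at 0 in all 6 other libraries, summed with the rest of their list of 6 to 99.7, 45.2 and 105 CPM in old PBS 2, 3 and 4 and to at most 0.999 CPM elsewhere. The 6 liver markers summed to 76.6, 29.0 and 6.95 CPM in old PBS 2, 3 and 4 and to at most 0.226 CPM elsewhere. Transcripts of the mitochondrial genome took 11.0%, 5.85% and 12.8% of the counts in old PBS 2, 3 and 4 and 5.69% to 8.0% in the others.

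The 34 genes spanned a wide range of levels. Compared per length, as FPKM (CPM per kilobase of exon), the most abundant was Fabp3, the cytosolic fatty acid carrier of heart and skeletal muscle, with a mean of 353 FPKM over the 9 libraries. It was followed by Mdh1 and Mdh2, the cytosolic and mitochondrial malate dehydrogenases, with 213 and 192 FPKM, and by Acadl, the long-chain acyl-CoA dehydrogenase, with 152 FPKM. By group, Fabp3 had 242 ± 60.2 FPKM (SD, n = 3) in young PBS, 578 ± 387 in old PBS and 238 ± 50.4 in old rMETRNL, and Mdh1 201 ± 39.8, 242 ± 87.8 and 195 ± 14.0. Fabp3 lay above Mdh1 in each of the 9 libraries, by least in young PBS 3 with 173 against 168 FPKM, where Mdh2 was higher than both at 175 FPKM. The lowest was Cpt1b, the muscle carnitine palmitoyltransferase of the outer membrane, with 1.34 FPKM. That value and the one of Etfb, a subunit of the electron transfer flavoprotein, are uncertain. Of the exon bases of Cpt1b, 81.4% are shared on the same strand with the readthrough gene Gm44502, and of those of Etfb 53.0% with Gm45233. Both partners had at most 1 count in any library, and how reads that fall in both genes were counted is not given in the sources used here. Acadvl shares 42.9% of its exon bases with Dvl2 on the opposite strand, and neither is the strand setting.

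The spread within the old PBS group exceeded that of the other groups for all 34 genes. For how many of all genes it did so was not counted. For the 21 fatty acid genes the coefficient of variation had a median of 43.1% in old PBS, 11.0% in young PBS and 6.79% in old rMETRNL (n = 3 each). For the 13 citrate cycle genes the medians were 36.2%, 13.9% and 6.80%. Old PBS 4 was the highest of the 9 libraries for 33 of the 34 genes, Cpt1b being the exception, where 25.4% of all 16124 genes kept over the 9 libraries had their highest value in it. Old PBS 3 was the lowest for 12 of 13 citrate cycle genes and for 5 of 21 fatty acid genes, where it held the lowest value of 15.0% of all genes. Old PBS 2 lay above all 6 libraries of the other groups for 6 citrate cycle genes and 16 fatty acid genes. With library totals alone these numbers were 3 and 15, and with size factors from the fiber markers 3 and 11. The share of all genes with that order was not counted. Over all genes, old PBS 2, 3 and 4 held the highest value of 12.9%, 15.6% and 25.4%. They held the lowest value of 18.0%, 15.0% and 25.8%, so they stood apart for many other genes as well. In bulk RNA, more fibers or mitochondria in a sample and more RNA of these genes per fiber cannot be told apart.

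**Figure D1:**
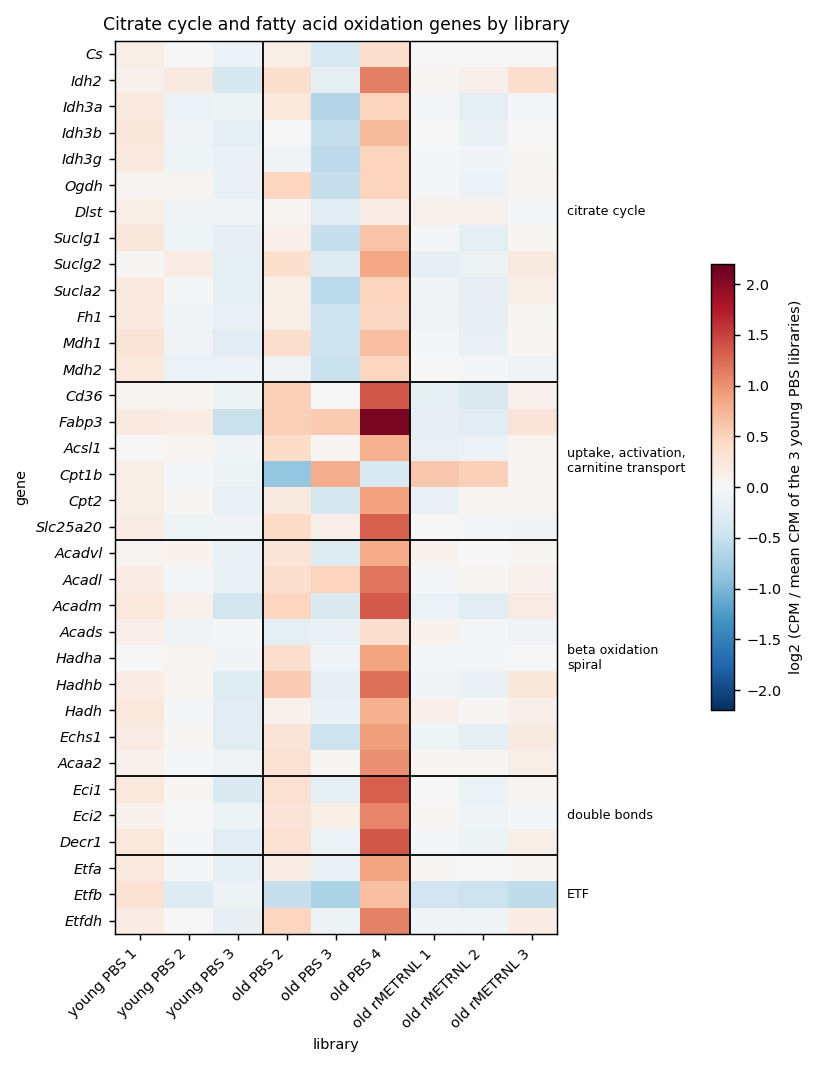
Level of each of the 34 genes (vertical axis, grouped by role) in each of the 9 libraries (horizontal axis), drawn as the log2 ratio of its CPM to the mean of the 3 young PBS libraries, red above and blue below. The column of old PBS 4 is red for 33 of 34 genes, that of old PBS 3 is blue for the citrate cycle, and the columns of the other 2 groups are pale; ETF is the electron transfer flavoprotein.

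The comparison of old PBS with young PBS asks how age changes these genes in injured muscle. The fatty acid genes had higher means in old PBS, by a median log2 fold change of 0.52 over 21 genes, while the citrate cycle genes differed little, by a median of 0.11 over 13, and the median over all genes was 0.01. None of the 34 genes passed an adjusted p of 0.05 in edgeR's quasi-likelihood test, which called 10 of 15560 genes (0.0643%), and DESeq2 also called 0 of 34 (265 genes called in all, 0.919%). At an unadjusted p under 0.05 edgeR listed 4 of the 34, all of fatty acid use, and 5.91% of all genes. The log2 fold change lay above 0 for 33 of 34 genes, but without old PBS 4 for 20, with a median of -0.12 for the citrate cycle and 0.17 for the fatty acid genes and 0 of 34 called (9 of 16128 genes, 0.0558%). Without old PBS 3, edgeR called 401 genes (2.52%) and again 0 of the 34. In that fit 21 of the 34 had an unadjusted p under 0.05, where 20.9% of all genes had one.

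Among the uptake and carnitine genes, Fabp3 had the largest difference. Its CPM was 231, 225 and 142 in young PBS and 288, 296 and 844 in old PBS. All 3 old PBS libraries lay above all young PBS libraries, and old PBS 4 lay far above the other 2. The log2 fold change was 1.26 (SE 0.43, edgeR adjusted p = 0.670), and 0.56 (SE 0.24) without old PBS 4. Without a filter on low counts edgeR called it (adjusted p = 0.0354), and over the alternatives other than leaving out a library the adjusted p ran up to 0.996. The opposite-strand neighbors of Fabp3, Gm10570 and Zcchc17, share under 10% of its exon bases each and 19.6% together. Zcchc17 had 744 to 1159 counts in every library.

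Cd36, the membrane translocase for long-chain fatty acids, had 212, 210 and 188 CPM in young PBS and 291, 205 and 524 CPM in old PBS. The groups overlapped, as old PBS 3 lay within the young range. The log2 fold change was 0.75 (SE 0.32, edgeR adjusted p = 0.837), and 0.30 (SE 0.21) without old PBS 4. Slc25a20, the carnitine-acylcarnitine carrier of the inner membrane, had 61.8, 51.7 and 52.3 CPM in young PBS and 74.3, 60.0 and 138 CPM in old PBS. Old PBS 2 and 4 lay above the young range and old PBS 3 within it, and the log2 fold change was 0.72 (SE 0.29, edgeR adjusted p = 0.785), and 0.29 (SE 0.18) without old PBS 4. Acsl1, which activates long-chain fatty acids to acyl-CoA, had 225, 238 and 218 CPM in young PBS and 299, 233 and 391 CPM in old PBS, again with old PBS 3 inside the young range. Cpt2, the inner-membrane carnitine palmitoyltransferase, differed by 0.34 on the log2 scale (SE 0.29), and Cpt1b, at 2.25 to 7.06 CPM in all libraries, by 0.06 (SE 0.41).

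In the beta oxidation spiral, Acadl had 280, 242 and 226 CPM in young PBS and 317, 350 and 561 CPM in old PBS. The groups did not overlap, and here old PBS 3 was above old PBS 2. The log2 fold change was 0.72 (SE 0.25, edgeR adjusted p = 0.684), and 0.43 (SE 0.19) without old PBS 4. Acadm, the medium-chain acyl-CoA dehydrogenase, had 261, 239 and 168 CPM in young PBS and 308, 178 and 569 CPM in old PBS, and its groups overlapped. Hadhb, the thiolase subunit of the trifunctional protein, had 266, 248 and 196 CPM in young PBS and 348, 210 and 549 CPM in old PBS, with old PBS 3 inside the young range. Hadha, the subunit with the hydratase and dehydrogenase activities, had 336, 351 and 325 CPM in young PBS and 432, 322 and 618 CPM in old PBS, where old PBS 3 lay just under the young range. The 9 spiral genes had log2 fold changes from 0.03 to 0.72, the least being that of Acads, the short-chain acyl-CoA dehydrogenase. Acads had 105, 91.2 and 93.4 CPM in young PBS and 83.0, 87.3 and 123 CPM in old PBS, so 2 of its old PBS libraries were below and 1 above the whole young range.

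The 3 enzymes that rearrange or reduce the double bonds of unsaturated fatty acids, Eci1, Eci2 and Decr1, had log2 fold changes of 0.63 (SE 0.35), 0.56 (SE 0.25) and 0.68 (SE 0.35). For Eci2 the CPM was 50.4, 47.7 and 43.9 in young PBS and 57.4, 51.7 and 99.8 in old PBS. Its groups did not overlap, though old PBS 3 exceeded the highest young library by little. Of the electron transfer flavoprotein chain, which hands electrons of the acyl-CoA dehydrogenases to ubiquinone, Etfa differed by 0.37 (SE 0.28), Etfdh by 0.57 (SE 0.29) and Etfb by -0.05 (SE 0.35) on the log2 scale.

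The 13 citrate cycle genes had log2 fold changes from 0.02 to 0.53 and adjusted p of 0.986 or more in edgeR. Cs, citrate synthase, which starts the cycle, had 826, 754 and 689 CPM in young PBS and 839, 598 and 981 CPM in old PBS. Old PBS 3 lay below the young range, as it did for most genes of the cycle, and the other 2 lay above it. Mdh2, which regenerates oxaloacetate, had 804, 627 and 625 CPM in young PBS and 652, 489 and 954 CPM in old PBS, a log2 fold change of 0.04 (SE 0.28, edgeR adjusted p = 0.996). Its sign changed with the scaling, to -0.07 with library totals alone. Mdh1 differed by 0.28 (SE 0.31, edgeR adjusted p = 0.994), with 630, 488 and 432 CPM in young PBS and 669, 377 and 820 CPM in old PBS. The largest difference of the cycle was that of Idh2, the NADP-dependent isocitrate dehydrogenase of mitochondria, at 0.53 (SE 0.33).

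The comparison of old rMETRNL with old PBS asks what the protein changed in aged injured muscle, and it uses the same 3 old PBS libraries as the comparison with young PBS. The fatty acid genes had lower means in old rMETRNL, by a median log2 fold change of -0.53, against -0.20 for the citrate cycle and -0.01 over all genes. None of the 34 passed in edgeR, which called 17 of 15682 genes (0.108%), and 6 had an unadjusted p under 0.05, all of fatty acid use, where 8.07% of all genes had one. DESeq2 called 1 of the 34, Fabp3 (log2 fold change -1.31, adjusted p = 0.0322), and 354 genes in all (1.22%). The log2 fold change lay below 0 for 32 of 34 genes, Dlst and Cpt1b being the exceptions, but for 19 without old PBS 4, when the medians were 0.04 for the citrate cycle and -0.17 for the fatty acid genes. The scaling also moved this split. With size factors from the fiber markers 24 of 34 lay below 0 and the medians were 0.03 for the citrate cycle and -0.33 for the fatty acid genes, and with library totals alone 27 lay below 0 and the medians were -0.03 and -0.39.

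The old rMETRNL libraries lay close together. Fabp3 had 177, 167 and 243 CPM in them, all below the 288 CPM of the lowest old PBS library, and a log2 fold change of -1.30 (SE 0.42, edgeR adjusted p = 0.420). Over the alternatives other than leaving out a library the adjusted p of Fabp3 ran from 0.000464 to 1.0. Acadl had 245, 258 and 266 CPM, also below every old PBS library, and a log2 fold change of -0.69 (SE 0.25, edgeR adjusted p = 0.496). Cd36 had 175, 163 and 216 CPM, which overlapped with the 205 CPM of old PBS 3, and a log2 fold change of -0.90 (SE 0.33, edgeR adjusted p = 0.514). Slc25a20 had 54.6, 54.4 and 53.2 CPM, all below the old PBS libraries, the nearest being old PBS 3 at 60.0 CPM. Its log2 fold change was -0.76 (SE 0.28, edgeR adjusted p = 0.531). The other members with an unadjusted p under 0.05 were Acsl1 (log2 fold change -0.53, SE 0.23) and Eci2 (log2 fold change -0.59, SE 0.25).

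Of the most abundant citrate cycle genes, Mdh1 had 507, 462 and 533 CPM and Mdh2 683, 676 and 648 CPM in old rMETRNL. Both lay between old PBS 3 and old PBS 4, and Mdh2 overlapped with old PBS 2 as well. The log2 fold changes were -0.33 (SE 0.29, edgeR adjusted p = 0.790) for Mdh1 and -0.08 (SE 0.27, edgeR adjusted p = 0.960) for Mdh2. The value of Mdh2 turned to 0.08 with library totals alone. Dlst, the succinyltransferase of the oxoglutarate dehydrogenase complex, had 317, 315 and 287 CPM in old rMETRNL and 309, 252 and 333 CPM in old PBS, a log2 fold change of 0.02 (SE 0.19).

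A single library decided how many of these genes were called. Without old PBS 3, edgeR called 10 of the 34 lower in old rMETRNL, all of fatty acid use, against 956 of 15981 genes (5.98%) called lower and 1560 (9.76%) in both directions. The 10 were Cd36, Fabp3, Acsl1, Slc25a20, Acadm, Hadhb, Eci1, Eci2, Decr1 and Etfdh. Fabp3 fell by 1.55 on the log2 scale in that fit (SE 0.36, edgeR adjusted p = 0.0265), Cd36 fell by 1.16 (SE 0.24, adjusted p = 0.0197) and Acadm fell by 1.05 (SE 0.25, adjusted p = 0.0288). Without old PBS 4 the same test called 0 of the 34 and 6 of 16111 genes (0.0372%), and the log2 fold change of Fabp3 was -0.61 (SE 0.20, edgeR adjusted p = 0.514) and that of Acadm -0.21 (SE 0.26). Old PBS 3 differed from old PBS 2 and 4 in the summed RNA of fiber markers as well. Its fiber markers summed to 99050 CPM, against 156915 and 181386 CPM, and its markers of newly formed fibers, such as Myh3, to 4569 CPM, against 1196 and 571 CPM. Not every fiber marker followed the sum, as Myh1 had 16402 CPM in old PBS 3 and 14707 and 9571.5 CPM in old PBS 2 and 4. The part of these differences in the results was not tested.

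**Figure D2:**
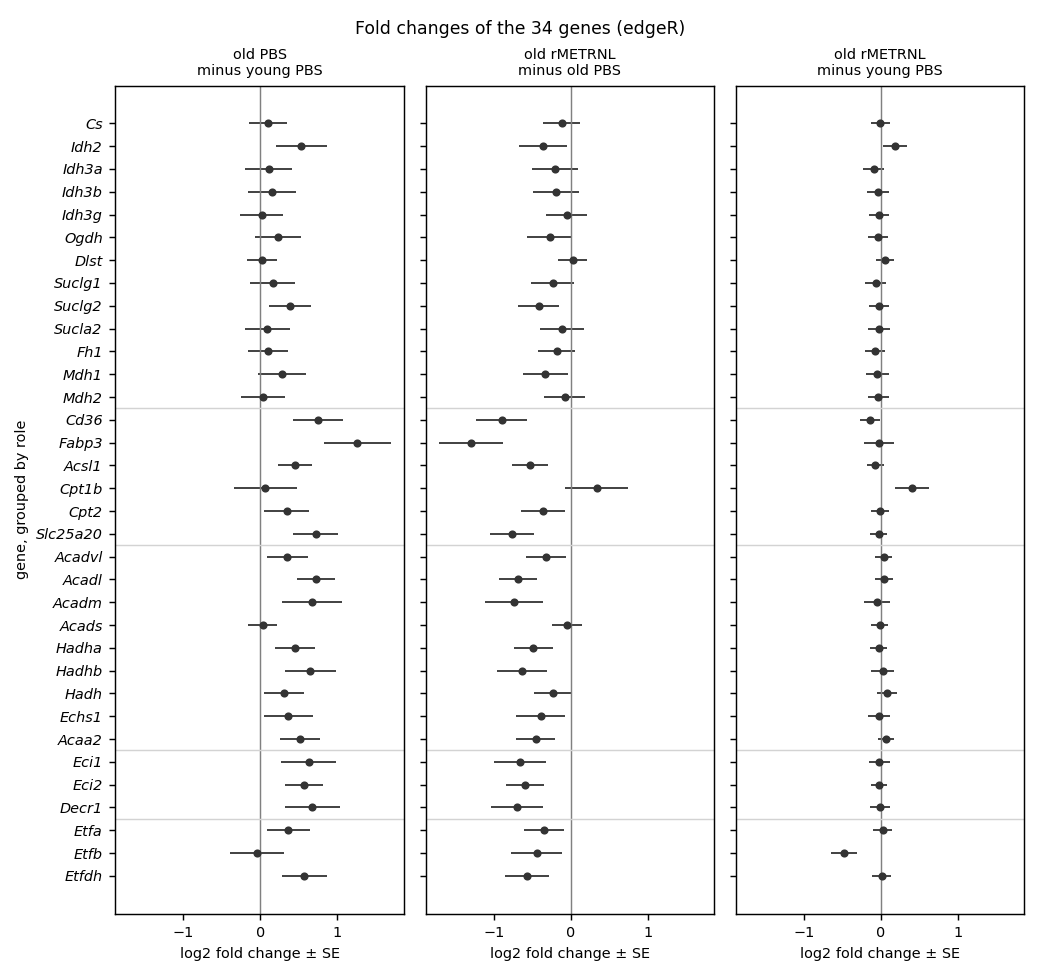
Log2 fold change of each of the 34 genes (horizontal axis) with its standard error (bars) in 3 comparisons of 3 libraries against 3, from edgeR. Points of the fatty acid genes lie mostly to the right of 0 in old PBS minus young PBS and to the left in old rMETRNL minus old PBS, which share the old PBS libraries, and near 0 with short bars in old rMETRNL minus young PBS.

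The comparison of old rMETRNL with young PBS sets the treated old muscle against the young control without use of the old PBS libraries. The 34 genes had similar means, with a median log2 fold change of -0.02 for the fatty acid genes, -0.04 for the citrate cycle and 0.00 over all genes. Of the 34 genes 10 had a log2 fold change above 0, but 33 did with fiber marker size factors and 27 with library totals alone. edgeR called 0 of 15396 genes (0%), 371 of which (2.41%) had an unadjusted p under 0.05, and DESeq2 also called 0. Among the 34 genes Etfb alone had an unadjusted p under 0.05. Its CPM was 21.4, 14.0 and 15.8 in young PBS and 12.8, 12.3 and 11.6 in old rMETRNL. The groups did not overlap, and the log2 fold change was -0.48 (SE 0.17, edgeR adjusted p = 1.0), with the uncertainty of shared exon bases given above. Cpt1b differed by 0.41 (SE 0.22), Idh2 by 0.18 (SE 0.15) and Cd36 by -0.14 (SE 0.13), each with an edgeR adjusted p of 1.0. Fabp3 differed by -0.03 (SE 0.19), Mdh1 by -0.05 (SE 0.15) and Mdh2 by -0.04 (SE 0.14). The standard errors of the 34 genes in this comparison, 0.104 to 0.221, were below those with old PBS, so it was the more precise of the 3. A p that misses the threshold does not show that the groups were alike.

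**Figure D3:**
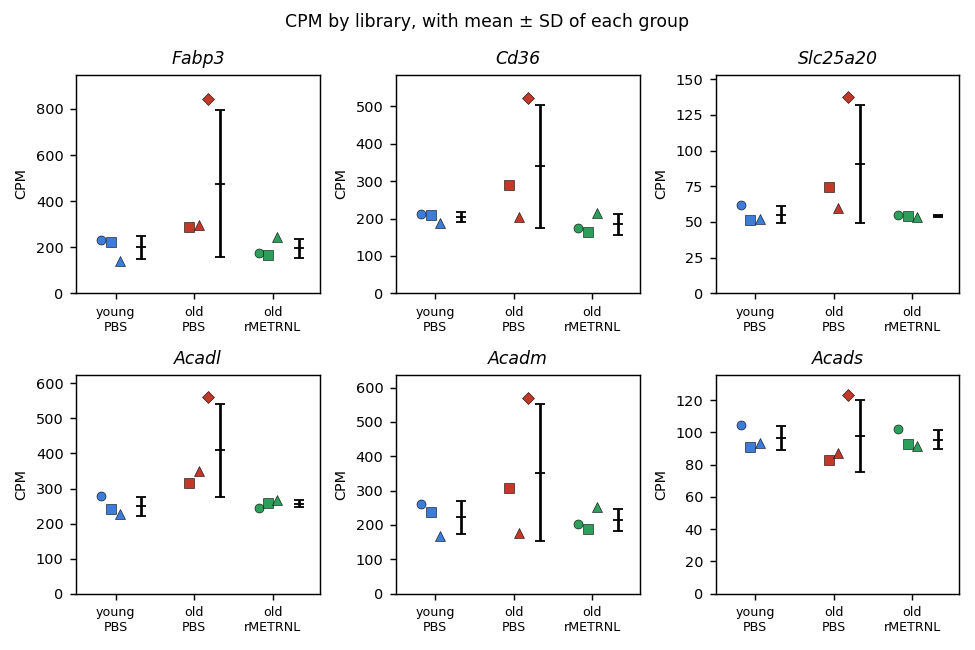
CPM (vertical axis, from 0) of 6 fatty acid genes in each library, with circles, squares, triangles and diamonds for libraries 1 to 4 of a group and the mean ± SD of its 3 libraries at the side. For Fabp3 and Acadl all 3 old PBS libraries lie above the other 6, with old PBS 4 the highest at 844 and 561 CPM, while Acads shows no such order.

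Because the old PBS libraries differed so much in overall level, the genes were also compared with each other inside each library, which does not depend on scaling. This comparison was chosen after the values were seen and is given without a test. The mean log2 level of the 21 fatty acid genes minus that of the 13 citrate cycle genes was -1.80, -1.74 and -1.77 in young PBS and -1.77, -1.75 and -1.77 in old rMETRNL. It was -1.71, -1.38 and -1.34 in old PBS 2, 3 and 4. All 3 old PBS libraries lay above the other 6, which stayed within a narrow band. The summed CPM gave the same order, with fatty acid genes at 0.613, 0.746 and 0.831 of the citrate cycle sum in old PBS and at 0.519 to 0.568 in the other 6. Leaving out Cpt1b and Etfb, the uncertain genes, gave 0.611, 0.741 and 0.827 against 0.514 to 0.565. On the log2 scale old PBS 2 exceeded the other groups by little, at -1.71 against -1.74 in young PBS 2. In old PBS 3 the mean log2 level of the fatty acid genes, 6.61, lay within the range of the other groups (6.49 to 6.82). Its citrate cycle mean, 7.99, lay below theirs (8.26 to 8.61).

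Gene by gene, 13 of the 21 fatty acid genes lay higher in all 3 old PBS libraries than in the other 6 when set against the citrate cycle mean of their library, and 2.26% of all genes did. They were 4 of 6 uptake and carnitine genes (Cd36, Fabp3, Acsl1 and Slc25a20), 5 of 9 spiral genes (Acadvl, Acadl, Hadha, Hadhb and Acaa2), all 3 double bond enzymes and Etfdh. The 13 citrate cycle genes cannot rise together against their own mean, and of the 12 other enzymes of the cycle, which are not in that mean, 0 did. Against the citrate cycle mean, Acadl stood at -0.48, -0.49 and -0.43 in young PBS, -0.30, 0.46 and 0.13 in old PBS and -0.47, -0.33 and -0.43 in old rMETRNL. Old PBS 3, low in most citrate cycle genes, was here the highest library. Etfdh, which passes the electrons on to ubiquinone, stood at -1.72, -1.69 and -1.71 in young PBS, -1.42, -1.38 and -1.19 in old PBS and -1.74, -1.70 and -1.60 in old rMETRNL. Acadm was among the 8 that did not separate, with -0.51 in old PBS 3 against -0.50 in young PBS 2, and Acads was another, with -2.22, -1.53 and -2.05 in old PBS and -1.97 to -1.71 in the other 6.

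Without that reference the count of genes with all 3 old PBS libraries on top depended on the scaling. It was 3 of 34 with TMM (Fabp3, Acadl and Eci2), where 2.98% of all genes had that order, 8 with library totals alone (2.88%) and 11 with size factors from the 16 fiber markers (3.24%). Fabp3 was among them under each of the 3 scalings, Acadl and Eci2 under TMM and library totals, and Cd36, Acsl1, Slc25a20 and Hadha under library totals and fiber markers.

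Set against the fiber markers of its own library, the mean log2 level of the fatty acid genes was -5.16, -5.23 and -5.15 in young PBS, -5.01, -4.66 and -4.53 in old PBS and -5.05, -5.09 and -5.15 in old rMETRNL. The citrate cycle genes stood at -3.37, -3.49 and -3.38 in young PBS, -3.30, -3.28 and -3.19 in old PBS and -3.28, -3.34 and -3.38 in old rMETRNL. The old PBS libraries were on top for the fatty acid genes, and old PBS 3 no longer stood below the other groups for the citrate cycle. With fiber marker size factors edgeR called 0 of the 34 genes in any comparison and 52 genes (0.334%), 36 genes (0.23%) and 0 genes in old PBS against young PBS, old rMETRNL against old PBS and old rMETRNL against young PBS. This scaling shifted the median of all genes to 0.10, 0.08 and 0.15.

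**Figure D4:**
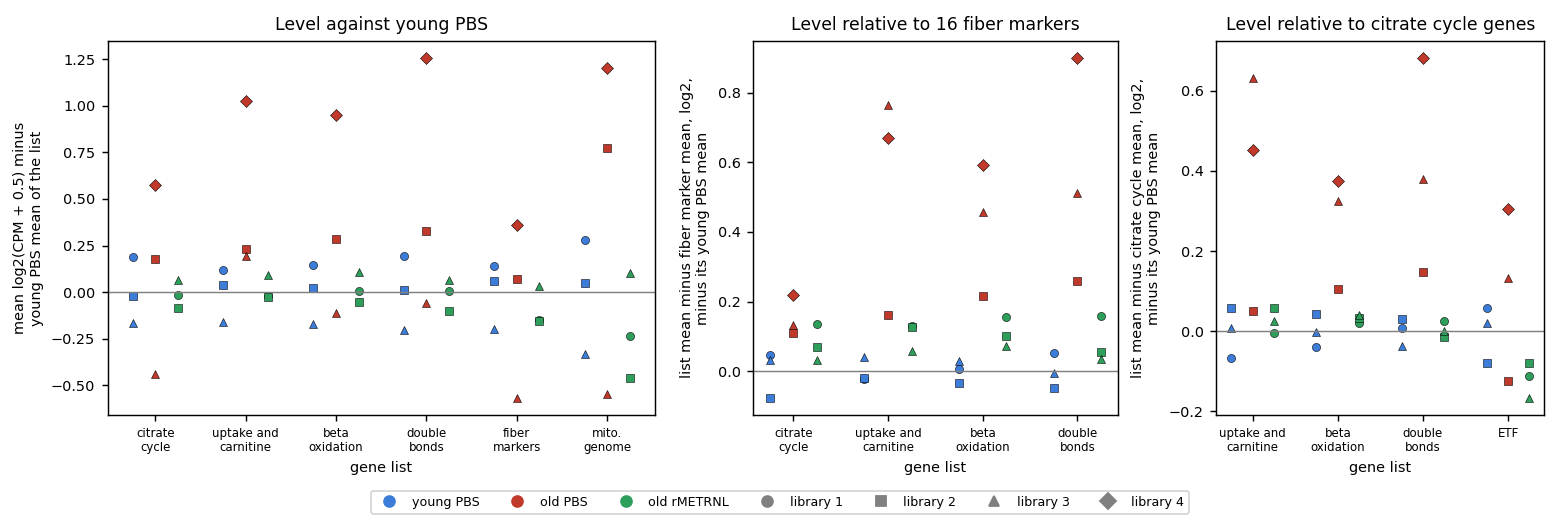
Mean log2 level of gene lists in each library (vertical axes, log2, young PBS mean set to 0), with colors for groups and symbols for library numbers. The left panel shows CPM levels, the middle panel levels relative to 16 fiber markers and the right panel fatty acid lists relative to the citrate cycle genes, where old PBS 3 and 4 lie above the other groups for each list shown and old PBS 2 for beta oxidation and double bonds.

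Other markers moved with the old PBS libraries. Markers of fibro-adipogenic cells, the collagen-making stromal cells, summed to 5523, 7744 and 4130 CPM in old PBS 2, 3 and 4 and to 8942 to 14620 CPM in the other 6. Most of this sum was the collagen genes Col1a1 and Col3a1. Col1a1, Dcn, Lum and Pi16 overlapped with the other groups, while Col3a1, Pdgfra and Dpt did not. The mean log2 level of the list was 8.34, 8.60 and 8.34 in old PBS and 8.84 to 9.47 elsewhere. Macrophage markers summed to 1034, 1377 and 1056 CPM in old PBS and 1393 to 1797 CPM elsewhere. Most of that sum was Lyz2, lysozyme, and the mean log2 level of the 8 macrophage markers, 5.49, 6.11 and 5.56 in old PBS and 6.08 to 6.34 elsewhere, overlapped in old PBS 3, where Csf1r, the macrophage growth factor receptor, had 179 CPM against 138 to 171 CPM in young PBS. The summed level of the 21 fatty acid genes was 3732, 2905 and 6451 CPM in old PBS 2, 3 and 4 and 2561 to 3197 CPM in the other 6. In the same order of libraries the brain markers summed to 99.7, 45.2 and 105 CPM and the mitochondrial genome took 11.0%, 5.85% and 12.8% of the counts, so both ranked the 3 libraries as the fatty acid sum did. That ranking was not particular to them. The citrate cycle genes (6088, 3897 and 7763 CPM) and the fiber markers (156915, 99050 and 181386 CPM) had it too. The liver markers summed to 76.6, 29.0 and 6.95 CPM, with Alb, albumin, at 63.3, 22.3 and 1.57 CPM. Adipocyte markers overlapped between all groups (22.6 to 199 CPM), and brown adipocyte markers were at 4.25 CPM or less. The summed slow fiber markers were highest in old PBS 3, at 567 CPM against at most 289 CPM, through the troponins Tnni1 (331 CPM) and Tnnt1 (158 CPM). Myl3, a slow myosin light chain, was lowest in that library, against 13.3 CPM or more elsewhere, and the mean log2 level of the 6 slow markers, 4.96, lay inside the range of the other libraries (3.65 to 5.42). Of the cardiac markers, Tnnt2 alone made up nearly all of the sum, with 154 CPM in old PBS 3 and at most 73.7 CPM elsewhere. Blood markers were highest in old PBS 4 (977 CPM) and old rMETRNL 2 (843 CPM), against at most 247 CPM elsewhere. The part of these cells in the levels of the 34 genes was not tested.

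Around the 34 genes, 77 others of the same pathways were read from the same fits. None passed edgeR in any comparison. In old PBS against young PBS, 7 had an unadjusted p under 0.05 (5.91% of all genes did) and the median log2 fold change was 0.19. In old rMETRNL against old PBS the values were 11 (8.07% of all genes) and -0.20. For old rMETRNL against young PBS they were 1 (2.41% of all genes) and -0.04. Pdk4, the kinase that shuts pyruvate dehydrogenase and so spares glucose when fat is burned, had 108, 118 and 151 CPM in young PBS, 289, 358 and 1447 CPM in old PBS and 115, 137 and 141 CPM in old rMETRNL. All 3 old PBS libraries lay above the other 6, old PBS 4 by far the most. The log2 fold changes were 2.47 (SE 0.59, edgeR adjusted p = 0.245) for old PBS against young PBS and -2.43 (SE 0.57, edgeR adjusted p = 0.190) for old rMETRNL against old PBS, and 0.06 (SE 0.14) for old rMETRNL against young PBS. Without old PBS 4 the first 2 were 1.37 (SE 0.21, edgeR adjusted p = 0.106) and -1.33 (SE 0.17, edgeR adjusted p = 0.0929), and without old PBS 3 edgeR called both (adjusted p = 0.0390 and 0.0109).

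Fabp5, the epidermal-type fatty acid binding protein found in macrophages and endothelium, ran the other way from Fabp3. It had 41.9, 43.4 and 56.8 CPM in young PBS, 22.9, 31.7 and 21.2 CPM in old PBS and 46.4, 53.9 and 46.0 CPM in old rMETRNL. All 3 old PBS libraries lay below the other 6. The log2 fold changes were -0.90 (SE 0.21, edgeR adjusted p = 0.232) and 0.93 (SE 0.19, edgeR adjusted p = 0.116), and DESeq2 called both (adjusted p = 0.0194 and 0.00488). Over the alternatives other than leaving out a library the adjusted p of Fabp5 reached 1.0 in each. Acot2, a mitochondrial acyl-CoA thioesterase, had 11.5, 13.2 and 11.0 CPM in young PBS, 17.8, 18.8 and 41.3 CPM in old PBS and 10.1, 9.04 and 12.4 CPM in old rMETRNL. The 3 old PBS libraries were again on top, with log2 fold changes of 1.13 (SE 0.32, edgeR adjusted p = 0.432) and -1.31 (SE 0.33, edgeR adjusted p = 0.244), which became 0.63 (SE 0.18) and -0.83 (SE 0.18) without old PBS 4. Without old PBS 3 edgeR called Fabp5 in both comparisons (adjusted p = 0.0301 and 0.00541) and Acot2 in the second (adjusted p = 0.0163). Ogdhl, a relative of the oxoglutarate dehydrogenase subunit Ogdh, had 5.79, 7.21 and 6.22 CPM in young PBS, 9.94, 14.4 and 10.3 CPM in old PBS and a log2 fold change of 0.86 (SE 0.22, edgeR adjusted p = 0.321).

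Sdha, the flavoprotein subunit of succinate dehydrogenase, which belongs to the citrate cycle but not to the 34 genes, had 998, 867 and 866 CPM in young PBS, 989, 665 and 1295 CPM in old PBS and 939, 910 and 889 CPM in old rMETRNL. Old PBS 3 was the lowest and old PBS 4 the highest library, and the log2 fold changes were 0.12 (SE 0.28) and -0.12 (SE 0.28) in the comparisons with old PBS. Ppargc1a, the coactivator that promotes the making of mitochondria, had 34.6 to 38.5 CPM in young PBS, 50.3, 31.3 and 42.0 CPM in old PBS and 30.7 to 38.5 CPM in old rMETRNL, with log2 fold changes of 0.17 (SE 0.20) and -0.29 (SE 0.20). Each of these 2 had an edgeR adjusted p of 0.738 or more in both comparisons. In old rMETRNL against young PBS the lowest p among the 77 was that of Pdp2, a phosphatase that reopens pyruvate dehydrogenase, with a log2 fold change of -0.64 (SE 0.24, edgeR adjusted p = 1.0), followed by Acad10 at 0.48 (SE 0.23) and Fabp4 at 0.32 (SE 0.19).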

How the data were processed

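RNA was measured in 9 libraries of injured tibialis anterior muscle, 3 per group. The authors deposited raw counts per Ensembl gene, with libraries kept apart. Library preparation used the NEBNext Ultra RNA kit, with paired-end reads. The submitters' processing notes name STAR, featureCounts and mm9, while versions, annotation release and strand setting are not given in the sources used here.

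Symbols, exon lengths and overlaps came from GENCODE M21 (GRCm38), which matched 54409 of 54532 genes. Promoter sequences came from RefSeq on GRCm38.p6. Each pair of groups (6 libraries) was fitted in edgeR 4.0.16 under R 4.3.3 (filterByExpr, TMM, glmQLFit, glmQLFTest, Benjamini-Hochberg over all genes tested, threshold 0.05). All 34 genes passed the filter in each comparison. Standard errors were derived from the F statistic. DESeq2 1.42.0 with its defaults, other filters and scalings, a fit of all 9 libraries, a replicate block and the removal of each library were tried as alternatives. List means used log2(CPM + 0.5). The edgeR and DESeq2 steps were tested on simulated data. Reads shared with copies elsewhere in the genome were not examined.

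The members and lists were chosen with earlier results of these data known. Any of the 34 could be named. Full statistics were given to those called, or, where fewer than 4 were, to the 4 of lowest p, and to the 3 of highest level per length. Of the other 77 pathway genes, those called or the 3 of lowest p were named, with Sdha, Ppargc1a and Pdk4. Some listed genes are not reported here. Values of other members were added after they were seen. Groups of 3 were not tested for outlying libraries.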

Additional observations from a re-analysis of the deposited data

How the results depend on the processing

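With 3 libraries per group, old PBS 3 and old PBS 4 each decided calls. Genes called in old PBS minus young PBS, 10 by edgeR, numbered 354 without a filter, 3 with at least 10 counts in every library, 265 by DESeq2, 63 with all 9 libraries in 1 fit and 52 with fiber marker size factors; in old rMETRNL minus old PBS, 17 by edgeR, they numbered 740, 1, 354, 71 and 36. In old rMETRNL minus young PBS, 132 were called without a filter. Of the 34 genes, 1 (Fabp3) and 3 (Fabp3, Cd36 and Slc25a20) were called without a filter in the first 2 comparisons and 1 by DESeq2 in the latter.

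Leaving out each library in turn gave 2 to 401 genes, 3 to 1560 and 0 to 1 in the 3 comparisons, and 0 to 10 of the 34 in old rMETRNL minus old PBS. The log2 fold change then ranged from 0.56 to 1.52 (Fabp3), 0.30 to 1.01 (Cd36), 0.29 to 0.95 (Slc25a20), 1.37 to 2.85 (Pdk4), -0.25 to 0.24 (Mdh2), -0.12 to 0.34 (Sdha) and -0.0065 to 0.33 (Ppargc1a) in old PBS minus young PBS, and from -0.28 to 0.20 (Mdh2) and -0.34 to 0.11 (Sdha) in old rMETRNL minus old PBS. In old rMETRNL minus young PBS it ranged from -0.22 to 0.086 (Fabp3), -0.16 to 0.12 (Mdh1), -0.099 to 0.089 (Mdh2), -0.032 to 0.069 (Sdha) and -0.048 to 0.21 (Pdk4).

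Fiber marker size factors turned old rMETRNL minus old PBS to 0.14 (Mdh2), 0.095 (Sdha) and a citrate cycle median of 0.030, and old rMETRNL minus young PBS to 0.0047 (Cd36), 0.13 (Fabp3), 0.12 (Mdh1), 0.13 (Mdh2) and 0.031 (Ppargc1a), with medians of 0.13 (citrate cycle) and 0.14 (fatty acid). Library totals alone turned Mdh2 to -0.066 in old PBS minus young PBS, Mdh2 to 0.080 and Sdha to 0.035 in old rMETRNL minus old PBS, and Fabp3 (0.016), Mdh1 (0.0032) and Mdh2 (0.014) in old rMETRNL minus young PBS. Sdha went to -0.00096 there with DESeq2 and to -0.0013 with its size factors. Fiber marker factors and library totals alone were chosen after seeing the data. The cause of these changes was not tested.

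Same-numbered libraries did not deviate together in every pair (correlations of -0.38 to 0.48), so the numbers were not taken to pair the libraries. With a replicate block, old rMETRNL minus old PBS gave 65 genes, 0 of the 34, medians of 0.086 (citrate cycle) and -0.12 (fatty acid), Mdh2 at 0.21 and Sdha at 0.13, and old PBS minus young PBS gave a citrate cycle median of -0.029, Mdh2 at -0.14 and Sdha at -0.084, which rests in effect on the 4 libraries that share numbers.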

Other observations

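Lists of related genes, read without old PBS 3 (a choice made after the data were seen), described a wider set of fat and glucose handling genes. In old rMETRNL minus old PBS, edgeR then called 24 of the 77 pathway genes lower and 2 higher, where 5.98% and 3.78% of all genes were called lower and higher. Slc27a1, a fatty acid transport protein, fell by 1.84 on the log2 scale (SE 0.32, edgeR adjusted p = 0.0101), from 88.2 and 195 CPM in old PBS 2 and 4 to 28.4, 38.3 and 52.9 CPM, while old PBS 3 had 42.2 CPM. Ucp3, the uncoupling protein of muscle, fell by 1.68 (SE 0.34, edgeR adjusted p = 0.0168), from 107 and 315 CPM to 66.5, 66.7 and 66.2 CPM, with 64.4 CPM in old PBS 3. Plin5, which coats the lipid droplets that touch mitochondria, fell by 2.19 (SE 0.48, edgeR adjusted p = 0.0223). With all 3 old PBS libraries, edgeR gave adjusted p of 0.451, 0.536 and 0.446 for Slc27a1, Ucp3 and Plin5, and without old PBS 4 it called 0 of the 77.

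Against the citrate cycle mean of its library, 8 of the 77 pathway genes lay higher in all 3 old PBS libraries than in the other 6, where 2.26% of all genes did. Among them were Pdk4, Mlycd, Acot2, Ech1 and Ucp3. Of the 14 transcriptional regulators 0 did.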
